A study of Mus musculus with 4 samples.

Results

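Transcripts of the electron donors of cytochrome P450 enzymes, of flavin-containing monooxygenases and of epoxide hydrolases were followed in small intestine of mice with and without the Cyp3a cluster, a run of genes that encode drug- and steroid-oxidising P450 enzymes. The members were the 9 genes Por, Cyb5a, Cyb5r3, Fmo1, Fmo2, Fmo4, Fmo5, Ephx1 and Ephx2, listed by symbol. The list was drawn up with earlier results of these data known, so it is not blind to them. All 9 had a probe on the array, out of 21153 named genes with one, and all 9 were among the 14395 genes tested. They were read by 14 probes, each well above background on at least 2 arrays. RNA from wild-type mice (genotype wild type) was compared with RNA from mice whose labels give the genotype Cyp3a-/-, with 2 arrays per genotype and no treatment named. Different animals were used for the 2 experiments. Strain, sex and age, the position of the gut segment, and whether an array held RNA of 1 mouse or of a pool are not given in the sources used here. The p-values therefore measure only the spread between these arrays, which may in part be technical.

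Microsomal P450 enzymes need electrons from NADPH for every oxidation. Por, the P450 oxidoreductase, carries them from NADPH to the haem, and cytochrome b5 (Cyb5a), which is itself reduced by cytochrome b5 reductase (Cyb5r3) or by Por, can deliver a further electron to some P450 enzymes and supplies lipid desaturases. Flavin-containing monooxygenases (Fmo genes) oxidise soft nucleophiles such as amines and thioethers without P450 or Por. Epoxides that P450 enzymes make from drugs, dietary compounds or fatty acids are opened to diols by epoxide hydrolases, microsomal (Ephx1) or soluble (Ephx2). In the intestine several of these enzymes are found in absorptive enterocytes, beside the Cyp3a enzymes that act on swallowed drugs. Which cells held the transcripts of the members was not measured here.

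Levels are given as log2 signal minus the 75th percentile of log2 signal on the same array, from the brightest probe of each gene, and differences are knockout minus wild type on that log2 scale, each with its standard error (SE) from limma. On the 4 arrays 55.1% to 64.4% of 39429 probes were well above background, and the number of arrays limits the precision. The labels were checked on Cyp3a11, the cluster gene for a main drug-oxidising P450, whose levels in array order 1 and 2 were 5.05 and 5.78 on the wild-type arrays, against -5.77 and -4.52 on the knockout arrays. Both knockout signals were not well above background on that probe. Knockout 1 stood apart: across genes it correlated at 0.948 with knockout 2, and wild type 1 with wild type 2 at 0.979. Wild type 2 and knockout 1 shared a slide and its scan, and wild type 1 and knockout 2 were each alone on theirs. Over all genes limma called 0% higher and 0.0417% lower at an adjusted p of 0.05, the latter being 6 genes of the Cyp3a cluster. At an unadjusted p under 0.05 there were 24 genes higher and 39 lower.

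The sequence before the transcript start is shown for 3 members that stand for different patterns described further on: Ephx1, the member whose genotypes did not overlap, Por, the common electron donor, and Fmo2, the member that varied least. The windows come from RefSeq on GRCm38.p6, which held one or more for 5 of the 9 members, and each gives the 250 bases before an annotated transcript start, 5′ to 3′ on the strand of the gene. Ephx1 is at chr1:181017570-181017819 (minus strand) and Fmo2 at chr1:162898759-162899008 (minus strand), both before the outermost start of the gene. Por is at chr5:135688895-135689144 (plus strand), before a start inside the annotated gene, on the chromosome that also holds the Cyp3a cluster. Capitals mark matches, on either strand, to any of 5 motifs.
Ephx1: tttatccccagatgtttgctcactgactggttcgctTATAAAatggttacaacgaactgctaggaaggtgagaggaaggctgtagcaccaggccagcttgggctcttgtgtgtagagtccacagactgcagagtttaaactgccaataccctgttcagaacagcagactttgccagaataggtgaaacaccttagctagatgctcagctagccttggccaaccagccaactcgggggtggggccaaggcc
Por: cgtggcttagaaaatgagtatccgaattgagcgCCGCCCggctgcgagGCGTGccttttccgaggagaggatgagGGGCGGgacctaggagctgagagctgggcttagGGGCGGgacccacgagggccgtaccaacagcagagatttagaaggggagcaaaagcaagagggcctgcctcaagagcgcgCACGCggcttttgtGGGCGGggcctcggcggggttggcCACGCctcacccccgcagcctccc
Fmo2: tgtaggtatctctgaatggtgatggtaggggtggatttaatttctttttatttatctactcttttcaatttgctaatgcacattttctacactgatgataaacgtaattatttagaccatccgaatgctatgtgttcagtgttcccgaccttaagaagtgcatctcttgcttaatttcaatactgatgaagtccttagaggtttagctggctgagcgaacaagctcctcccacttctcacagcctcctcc

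The Por window had a GC content of 65.6%, that of Ephx1 51.2% and that of Fmo2 39.6%, around a median of 52.4% over all 32851 RefSeq windows of this length. Por held 4 matches to the GC box letters GGGCGG, which 32.7% of all windows held at least once, and 3 to GCGTG, the core bound by the aryl hydrocarbon receptor, found in 28.2%. Ephx1 held 1 match to TATAAA, found in 12.4%, which began at base -214 from the start. The antioxidant response core TGACNNNGC (10.2% of all windows) and the half-site AGTTCA used by the xenobiotic receptors PXR and CAR (11.8%) had no match in the 3 windows. Fmo2 matched none of the 5 motifs. A match is only a run of letters, and no match says only that these letters were not in these windows.

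None of the 9 members passed the threshold, against 0% of all genes called higher and 0.0417% called lower (limma's adjusted p = 1.00 for each member). All 9 differences were above 0, from 0.01 for Fmo2 to 1.05 for Ephx1, where 56.2% of all genes lay above 0. Their median was 0.19, against 0.04 over all genes. With the scale set by probes that were above background on all 4 arrays, Fmo1 and Fmo2 lay on the other side of 0, at -0.03 and -0.06. Ephx1 was the only member with each knockout level above each wild-type level, 1 of 9 against 8.66% of all genes, and 0 of 9 lay below, against 6.09%. So the share of members without overlap was close to that of all genes.

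**Figure D1:**
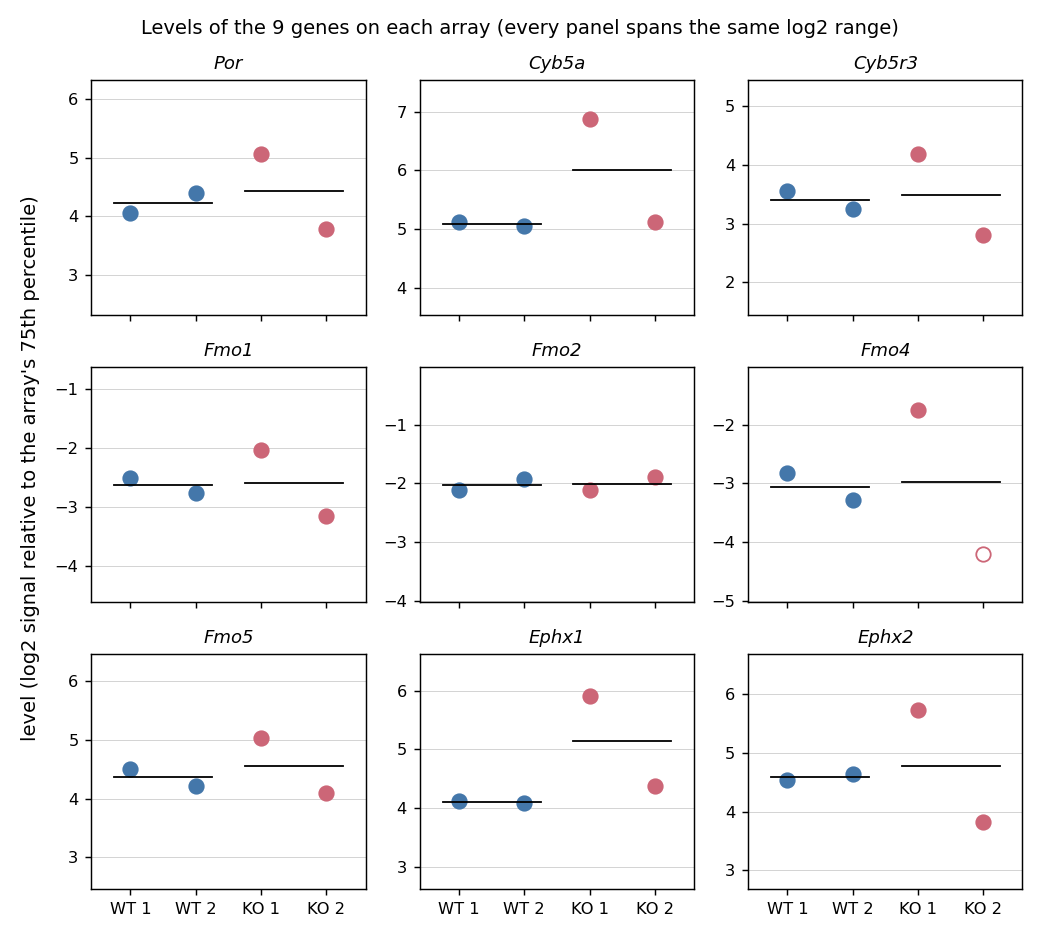
Level of each of the 9 genes (y axis, log2 signal relative to the 75th percentile of the array) on wild-type (WT, blue) and knockout (KO, red) arrays 1 and 2 (x axis), with black bars at the mean of 2 arrays and an open point for a signal not well above background. In 8 panels KO 1 is the highest point, while Fmo2 is nearly flat from -2.12 to -1.90.

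Among the electron donors, Cyb5a had the largest difference. Por had levels of 4.05 and 4.40 on the wild-type arrays, against 5.06 and 3.79 on the knockout arrays. Knockout 1 was the highest array for Por and knockout 2 the lowest, so the wild-type values lay between them. The mean was 4.23 ± 0.24 (SD, n = 2) in wild type and 4.42 ± 0.89 in knockout, a difference of 0.20 (SE 0.46, limma's 95% interval -0.93 to 1.33), or 1.15-fold.

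Cyb5a, the microsomal form of cytochrome b5, had levels of 5.12 and 5.06 on the wild-type arrays, against 6.88 and 5.12 on the knockout arrays. Knockout 1 stood 3.45-fold above the wild-type mean while knockout 2 was at 1.02-fold, level with wild type 1. The difference was 0.91 (SE 0.58, interval -0.51 to 2.33, limma's unadjusted p = 0.17), a 1.88-fold higher mean signal whose knockout SD of 1.24 was far above the wild-type SD of 0.05.

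Cyb5r3, the reductase that feeds cytochrome b5 from NADH, had levels of 3.56 and 3.25 on the wild-type arrays, against 4.19 and 2.80 on the knockout arrays. As for Por, the knockout arrays bracketed the wild-type arrays. The difference was 0.09 (SE 0.49, interval -1.09 to 1.27). A second, dimmer Cyb5r3 probe had levels of 0.49 and -0.12 on the wild-type arrays, against 0.34 and 0.03 on the knockout arrays, with a difference of 0.00. On that probe both knockout values lay between the wild-type ones, and the gap between the knockout arrays was smaller than the gap between the wild-type arrays.

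The 4 Fmo genes had differences from 0.01 to 0.20. Fmo5, which encodes an Fmo abundant in liver and gut that also acts as a Baeyer-Villiger monooxygenase, had levels of 4.51 and 4.22 on the wild-type arrays, against 5.04 and 4.09 on the knockout arrays. Knockout 1 was the highest and knockout 2 the lowest of the 4 arrays. The difference was 0.20 (SE 0.40, interval -0.77 to 1.17), or 1.15-fold. Its other probes showed a wider gap between the knockout arrays: one had levels of -0.71 and -0.85 on the wild-type arrays, against 0.44 and -1.59 on the knockout arrays. The other had -1.31 and -1.21 on the wild-type arrays, against -0.14 and -1.90 on the knockout arrays, and the differences of the pair were 0.21 and 0.24.

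Fmo1, the main Fmo of mouse kidney and liver, gave dim signals with levels of -2.51 and -2.76 on the wild-type arrays, against -2.03 and -3.16 on the knockout arrays. The order was again knockout 1, wild type, knockout 2, with a difference of 0.04 (SE 0.47, interval -1.11 to 1.19). Its second probe was well above background only on wild type 1 and knockout 1 and had a difference of -0.04.

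Fmo4 had levels of -2.83 and -3.28 on the wild-type arrays, against -1.75 and -4.21 on the knockout arrays, and knockout 2 was not well above background. It had the widest gap between the knockout arrays of the 9 genes: knockout 1 was above knockout 2 by 2.45, and by more than that for 0.618% of all genes. The difference was 0.08 with an SE of 0.80, and its interval of -1.86 to 2.02 covers a 4.05-fold higher signal as well as one at 0.275 of the wild-type signal.

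Fmo2, the Fmo best known from lung, departed from this order. Its levels were -2.12 and -1.93 on the wild-type arrays, against -2.12 and -1.90 on the knockout arrays, so each knockout array lay within 0.03 of a wild-type array. The difference was 0.01 (SE 0.32), and the interval of -0.78 to 0.80 leaves room for changes of up to 1.74-fold. Fmo6 and Fmo9 had probes but were not well above background on at least 2 arrays and were not tested.

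Of the epoxide hydrolases, Ephx1 had the largest difference of the 9 genes. Microsomal epoxide hydrolase detoxifies reactive epoxides, and its gene is a known target of xenobiotic and oxidative stress sensors. Ephx1 had levels of 4.12 and 4.08 on the wild-type arrays, against 5.91 and 4.38 on the knockout arrays. The genotypes did not overlap: the knockout levels were the higher, by much in knockout 1 (3.51-fold above the wild-type mean) and by little in knockout 2 (1.21-fold). The mean was 4.10 ± 0.03 (SD, n = 2) in wild type and 5.14 ± 1.08 in knockout, a 2.06-fold higher signal (difference 1.05, SE 0.52, interval -0.22 to 2.31). Limma's unadjusted p was 0.0901 and the gene ranked 137 of 14395 by p. A second Ephx1 probe had levels of -0.25 and -0.06 on the wild-type arrays, against 1.47 and -0.08 on the knockout arrays. Here knockout 1 was again the highest array, knockout 2 lay between the wild-type arrays, and the difference was 0.86, so the absence of overlap held for 1 of the 2 probes.

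Ephx2 encodes the soluble epoxide hydrolase, which hydrolyses epoxides of fatty acids. Its levels were 4.54 and 4.64 on the wild-type arrays, against 5.73 and 3.82 on the knockout arrays. Knockout 1 was 2.20-fold above the wild-type mean and knockout 2 at 0.587 of it. These opposite values left a difference of 0.19 (SE 0.61, interval -1.31 to 1.68).

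**Figure D2:**
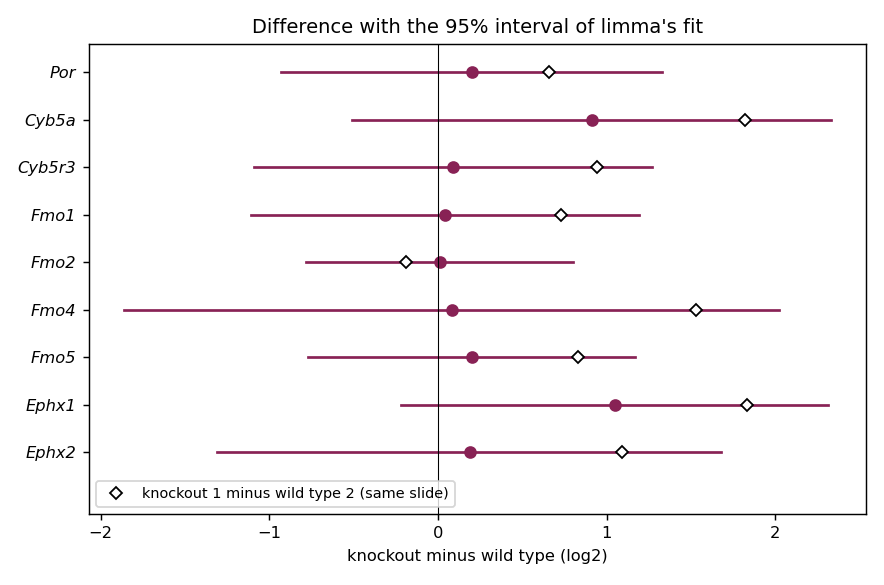
Difference of each gene (x axis, knockout minus wild type, log2) with the 95% interval of limma's fit on 2 arrays per genotype (line), and the difference between the 2 arrays that shared a slide (open diamond). All 9 intervals cross 0, and 8 diamonds lie above 0.66 or at it, with Fmo2 at -0.19.

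Between the knockout arrays the members lay on opposite sides of wild type in most cases. Knockout 1 was above both wild-type arrays for 8 of 9 members, against 37.9% of all genes, and below both for 1, against 34.4%. Knockout 2 was below both for 6 of 9, against 26.6% of all genes, and above both for 2, against 33.6%. Those 2 were Ephx1 and, by 0.03, Fmo2. Measured from the wild-type mean, the median of the 9 genes was 0.83 in knockout 1 and -0.44 in knockout 2, against 0.03 and 0.04 over all genes. Ephx1 and Cyb5a lay farthest out in knockout 1: 0.417% and 0.431% of all genes had a higher difference there. In knockout 2 their differences were 0.28 and 0.03.

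**Figure D3:**
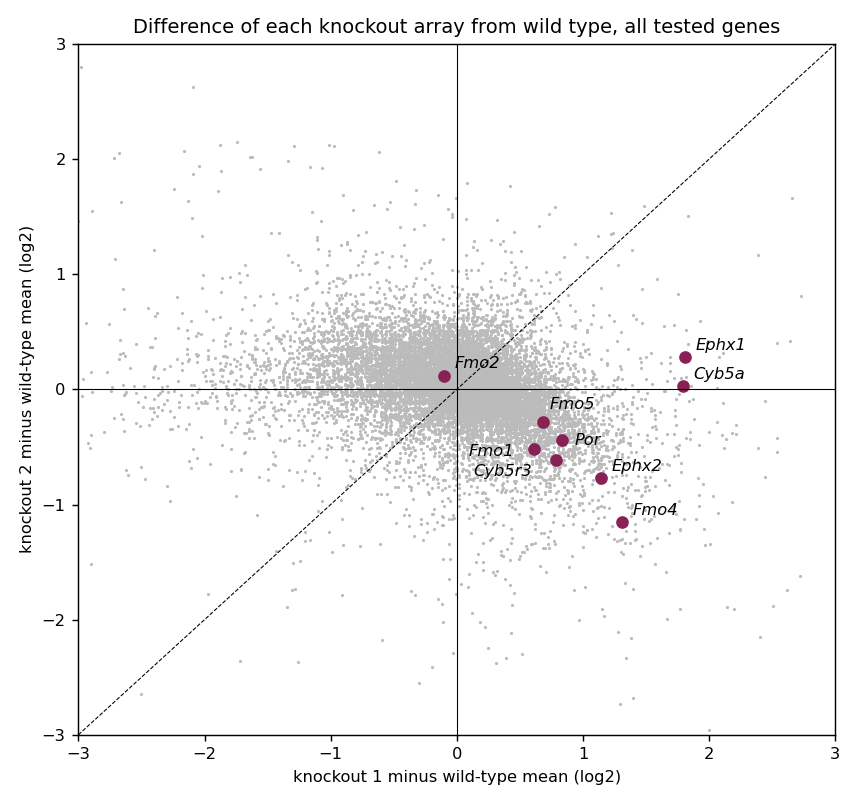
Difference from the wild-type mean in knockout 1 (x axis, log2) against that in knockout 2 (y axis, log2) for all tested genes (grey) and the 9 members (purple); the dashed line marks equal values and 49 genes lie outside the range of 3 shown. Por, Cyb5r3, Fmo1, Fmo4, Fmo5 and Ephx2 lie at the lower right, above 0 in knockout 1 and below 0 in knockout 2, while Ephx1 and Cyb5a lie to the right at 0.28 and 0.03.

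Within the slide that held both genotypes, knockout 1 minus wild type 2 had a median of 0.94 over the 9 members and of 0.08 over all genes. The largest of these differences were 1.83 for Ephx1 and 1.82 for Cyb5a. Since this is 1 array against 1, it has no replicate check. Without knockout 2, Ephx1 (difference 1.81, limma's adjusted p = 0.0216) and Cyb5a (1.79, adjusted p = 0.0414) were called higher, along with 0.938% of all genes, and the spread then came from the wild-type arrays alone. Without knockout 1 their differences were 0.28 and 0.03, the median of the members was -0.44, and no member passed. Over these and the other alternatives tried, 18 of 18 values for Ephx1 and 17 of 17 for Cyb5a stayed above 0, while each of the other 7 members changed sign under at least 1. The alternatives reuse the same arrays, and all but the fit without knockout 1 include that array. These counts are therefore not independent checks.

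**Figure D4:**
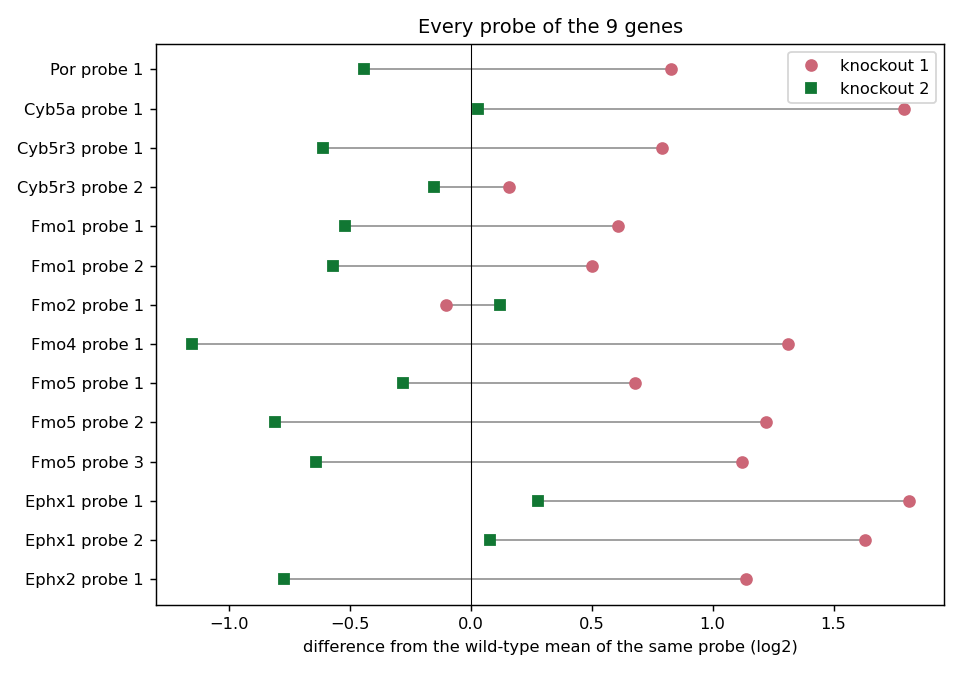
Difference of knockout 1 (circles) and knockout 2 (squares) from the wild-type mean of the same probe (x axis, log2) for all 14 probes (y axis, brightest probe of each gene first). On 13 probes the circle lies to the right of the square; on Fmo2 the order is turned, at -0.10 and 0.12.

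Markers of several gut cell types also differed between the knockout arrays, in either direction, and in bulk tissue fewer cells of a type and less RNA per cell cannot be told apart. All 12 absorptive enterocyte markers, which define the lining of the labelled tissue, were tested. All 12 were higher in knockout 1 than in knockout 2, against 47.5% of all genes. Measured from the wild-type mean, their median stood at 0.94 in knockout 1, -0.35 in knockout 2, 0.27 in wild type 1 and -0.27 in wild type 2. Villin (Vil1), a microvillus protein, stood at 0.93 in knockout 1 and -0.35 in knockout 2, again from the wild-type mean. The summed signal of the 12 markers, in multiples of the 75th percentile, was 757 to 1180 in wild type and 847 to 1500 in knockout. The 8 smooth muscle markers ran the other way, with medians of -0.94 and 0.68 in knockout 1 and 2 and summed signals of 184 to 210 in wild type and 104 to 316 in knockout. The 7 fibroblast markers had medians of -0.59 and 0.46, with sums of 35.3 to 50.3 and 28.2 to 57.6. The part of cell makeup in the members' values was not tested.

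The members were also set against the enterocyte markers directly, an alternative added after the values were seen, by scaling each array on the median level of the 12 markers. On that scale Ephx1 had 0.89 in knockout 1 and 0.53 in knockout 2 relative to wild type, and Cyb5a had 0.87 and 0.28. On its brightest probe Ephx1 was still without overlap, with a difference of 0.71. Its levels were -1.63 and -0.87 on the wild-type arrays, against -0.36 and -0.72 on the knockout arrays. Such an absence of overlap held for 0.361% of all genes in that direction and for 3.02% in the other. Before this scaling the shares were 8.66% and 6.09%, so the scaling itself lowered them. It also widened the gap between the wild-type arrays for Ephx1, from 0.04 to 0.76. On the second Ephx1 probe the genotypes overlapped on this scale too, with knockout 2 below wild type 2. From wild type 2 to knockout 2 its level went from -0.06 to -0.08, while the median of the markers rose from 4.94 to 5.10. The absence of overlap thus held for the brightest probe only. Cyb5a overlapped, since knockout 2 at 0.02 lay under wild type 2 at 0.11, with a difference of 0.57. The other 7 members had differences from -0.32 to -0.13, against a median of -0.30 over all genes on this scale. No member passed here either.

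**Figure D5:**
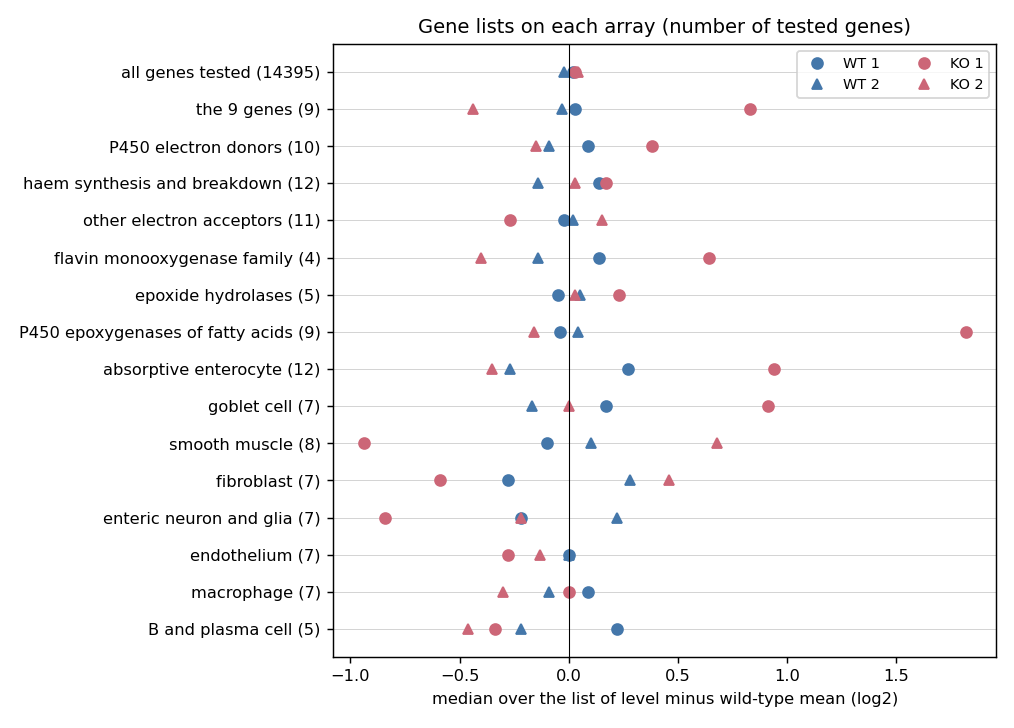
Median over each gene list of the level minus the wild-type mean (x axis, log2) on each of the 4 arrays, for all genes, the 9 members, related enzyme lists and cell type markers (y axis, tested genes in brackets). The members lie at 0.83 in KO 1 and -0.44 in KO 2, near the absorptive enterocyte markers at 0.94 and -0.35 and opposite to smooth muscle at -0.94 and 0.68.

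Other cell types were less regular. In knockout 1 and 2 the medians were 0.91 and 0.00 for 7 goblet cell markers, -0.13 and 0.09 for 3 Paneth cell markers, 0.52 and -0.18 for 5 enteroendocrine markers and -0.84 and -0.22 for 7 markers of enteric neurons and glia. They were -0.28 and -0.13 for 7 endothelial markers, -0.34 and -0.46 for 5 of B and plasma cells, 0.00 and -0.30 for 7 of macrophages, -1.41 and 1.84 for 4 of adipocytes and -0.25 and 0.94 for 2 of exocrine pancreas. The rest of the 8 listed pancreas markers were not well above background on at least 2 arrays and were not tested. Among them, Amy2a5 was well above background on knockout 2 alone, with levels of 0.06 and -2.94 there on its probes. For 6 tested liver markers the medians were -2.03 and -0.02 in knockout 1 and 2, and 2.12 and -2.12 in wild type 1 and 2, with summed signals of 2.51 to 11.4 in wild type and 0.786 to 3.52 in knockout. Albumin (Alb) had levels of 1.33 and -5.50 on the wild-type arrays, against -5.56 and -2.60 on the knockout arrays, and was not well above background on wild type 2 and knockout 1. The part of liver RNA in the members' values was not tested.

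Enzymes that work with the members were followed in 6 lists, in which 0 genes passed the threshold. Of 11 genes listed as electron donors or other partners of P450 enzymes, 3 of them members, 10 were tested. The 7 outside the members had differences from 0.01 to 0.40. Pgrmc1, a haem-binding protein that associates with P450 enzymes, had levels of 3.36 and 3.41 on the wild-type arrays, against 4.43 and 3.14 on the knockout arrays (difference 0.40, SE 0.45). It had the order of Por, with knockout 1 highest and knockout 2 lowest. Cyb5r1, another cytochrome b5 reductase, did not: its levels were 0.21 and -0.70 on the wild-type arrays, against -0.24 and 0.19 on the knockout arrays. Fdx1, the ferredoxin that serves mitochondrial P450 enzymes, had levels of 3.87 and 3.61 on the wild-type arrays, against 4.07 and 3.59 on the knockout arrays (difference 0.09, SE 0.31).

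Haem, the prosthetic group of P450 enzymes and cytochrome b5, is made and degraded by the 12 genes of the next list, 10 of which had differences above 0 (median 0.15). The porphyrin enzyme Cpox had levels of 0.76 and 0.82 on the wild-type arrays, against 2.02 and 0.75 on the knockout arrays, so knockout 1 alone was high. The haem oxygenase gene Hmox1, whose enzyme takes its electrons from Por, had -1.51 and -0.63 on the wild-type arrays, against 0.42 and -1.15 on the knockout arrays. Blvrb, a biliverdin reductase, was 1 gene of 12 without overlap, a share near the 8.66% of all genes, at 0.81 and 1.16 on the wild-type arrays, against 1.55 and 1.23 on the knockout arrays (difference 0.41, SE 0.29).

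Most other enzymes that take electrons from Por or cytochrome b5, in sterol synthesis and fatty acid desaturation, did not share the order of the members. Of 11 tested, 2, both of sterol synthesis, were higher in knockout 1 than in knockout 2, against 47.5% of all genes. The medians of the 11 relative to wild type were -0.27 in knockout 1 and 0.15 in knockout 2. Differences were above 0 for 7 of the 11 (median 0.07), though not for the genes named next. The desaturase gene Fads2 had levels of -2.54 and -3.67 on the wild-type arrays, against -4.48 and -3.01 on the knockout arrays. Scd1, which makes monounsaturated fatty acids, had -1.79 and -1.65 on the wild-type arrays, against -2.91 and -1.29 on the knockout arrays. In both, knockout 1 was the lowest array. Cmah, which hydroxylates sialic acid with electrons from cytochrome b5, had a difference of -0.38 (SE 0.54).

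Upstream of the epoxide hydrolases, 9 genes of the Cyp2c and Cyp2j families, whose enzymes can epoxidise fatty acids, were tested. All 9 had differences above 0, against 56.2% of all genes. All 9 were also higher in knockout 1 than in knockout 2, against 47.5% of all genes. The median of these 9 stood at 1.82 in knockout 1 and at -0.16 in knockout 2, measured from the wild-type mean. Cyp2c55 had levels of 0.10 and 1.01 on the wild-type arrays, against 4.48 and 0.85 on the knockout arrays. Cyp2c38, at -1.89 and -1.69 on the wild-type arrays, against 1.54 and -1.41 on the knockout arrays, did not overlap, nor did Cyp2j13, by little in knockout 2 (difference 0.44, SE 0.36). In all, 3 of 9 did not overlap, against 8.66% of all genes. Probes of these close relatives may bind transcripts of one another.

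Of the 3 further hydrolases tested, 2 had knockout 1 as the highest array, as Ephx1 and Ephx2 did, and 1 had it as the lowest. Ephx4, a relative of little known function, had levels of 1.04 and 1.64 on the wild-type arrays, against -0.98 and 1.52 on the knockout arrays. It was the one with knockout 1 lowest, and its difference was -1.07 (SE 0.78). Lta4h, which hydrolyses the epoxide of leukotriene A, had levels of 4.12 and 3.88 on the wild-type arrays, against 4.23 and 4.03 on the knockout arrays (difference 0.13, SE 0.29). Ephx3 had -2.36 and -2.26 on the wild-type arrays, against -2.16 and -2.31 on the knockout arrays (difference 0.08, SE 0.33). In both, knockout 1 was the highest array by a small margin and knockout 2 lay between the wild-type levels. The imprinted gene Mest was not well above background on at least 2 arrays.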

How the data were processed

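Total RNA of small intestine was labelled with Cy3 and hybridised to 1-colour Agilent mouse arrays, per the labels' protocols. Agilent Feature Extraction 11.5.1.1 turned the scans into spot values, per the submitters' processing notes. The deposited intensity of a spot is its background-subtracted, detrended signal, not scaled between arrays, per the file headers. The deposited value table holds log2 values of unstated scale. Every value lay within 0.01 of log2 signal scaled to the 75th percentile of the array and centred on each probe's median over arrays. The medians of its columns were 0.05 and -0.10 for the wild-type arrays, -0.11 for knockout 1 and 0.12 for knockout 2.

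Control and outlier spots (91 to 129 per array) were dropped, and spots of a probe averaged as log2. Of 39429 probes, 28025 matched 1 RefSeq symbol (GRCm38.p6) by accession, 0 several and 11404 none; the header names another build, so RefSeq served for names and promoter windows only. Probes well above background on at least 2 arrays were kept, with the brightest per gene. Genotypes were compared with lmFit and eBayes (variance trend with intensity, limma 3.58.1, R 4.3.3), over all genes, with Benjamini-Hochberg adjustment. The fit was also run on simulated data with independent noise of the same size on every array. Those data had no array that stood apart as knockout 1 did, so they do not show how the fit handles one. For normexp, an alternative chosen after seeing the data, median spot and background intensities were used, and 6 spots of knockout 2 with background above signal took the array's median background. Named were all members with every probe, Cyp3a11 and up to 3 other genes of smallest p per enzyme list. Vil1, Alb, Mest and Amy2a5 were added after values were seen, and of the marker lists no further gene is given. The members and lists were chosen with earlier results of these data known. Alternatives were other background corrections, scalings, filters, probes and variance settings, the authors' table, a replicate block, the shared slide, and leaving out each array.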

Additional observations from a re-analysis of the deposited data

How the results depend on the processing

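No member passed under any scaling, filter, probe or variance setting tried. Keeping only genes above background on all 4 arrays left 0 genes called lower, since the Cyp3a cluster genes, dim in knockout, then drop out, and Fmo4 with them. The members' median was 0.94 within slide 2, where Fmo2 was -0.19. With the 75th percentile of probes above background on all arrays, Fmo1 was -0.03 and Fmo2 -0.06, and on its second probe Fmo1 was -0.04. Scaled on enterocyte markers, Por was -0.14, Cyb5r3 -0.25, Fmo1 -0.29, Fmo2 -0.32, Fmo4 -0.26, Fmo5 -0.13 and Ephx2 -0.15, with 1 gene called higher. The replicate block gave 6 genes higher and 26 lower and no member. Samples with the same number deviated together with a correlation of 0.0506. Since wild type 2 and knockout 1 shared a slide, this value cannot show whether the numbers mark pairs. Leaving out 1 array at a time gave 0 to 135 genes higher and 0 to 298 lower, 0 to 2 members called and a members' median of -0.44 to 0.83. In these fits Por ranged from -0.44 to 0.83, Cyb5r3 from -0.61 to 0.79, Fmo1 from -0.52 to 0.61, Fmo2 from -0.10 to 0.12, Fmo4 from -1.15 to 1.31, Fmo5 from -0.28 to 0.68 and Ephx2 from -0.77 to 1.14. Without knockout 1 came the lowest values, except for Fmo2, and without knockout 2 the highest counts; the lone knockout array then borrows the spread of the wild-type pair. The cause of these shifts was not tested. Slide as a block leaves no residual degrees of freedom, and normexp on mean spot signals was not run.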
